A study of Homo sapiens with 6 samples.

Results

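The collagen genes were examined for open chromatin at their promoters and in their gene bodies. The cells were HLF, a human line established from liver cancer. Members were the protein-coding genes of the GENCODE hg38 annotation whose symbols have the form COL, number, A, number. This gave 44 of 20033 protein-coding genes: 11 fibrillar collagens, 6 basement membrane collagens (the type IV chains) and 27 of other types. Chromatin was profiled by ATAC-seq, in which the Tn5 transposase cuts and tags accessible DNA and dense cutting is called as a peak. The 3 control libraries came from cells given the solvent DMSO. The other 3 came from cells given 5 μM SNDX-5613, also named revumenib, which blocks the contact between menin and the methyltransferase MLL1. The labels give 24 h for both arms and the same batch for all 6 libraries, while the study's text gives a longer exposure for this assay, so the duration is uncertain. The study's methods describe replicates as dishes split between the arms, and the labels do not say whether the libraries came from separate cultures. The p-values therefore measure only the spread between these libraries of 1 cell line, which may be technical.

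Collagens are secreted proteins whose chains wind around each other into a stiff helix. Fibrillar collagens assemble into the banded fibers that give tissue its tensile strength, and they are known for filling the scar of a fibrotic liver. Type IV collagen forms a mesh under epithelia and around vessels instead, and its genes lie in head-to-head pairs that share a start region. The remaining types decorate fibrils, anchor epithelia, form beaded filaments or span the cell membrane. In liver, stellate cells and fibroblasts are the known main source of fibrillar collagen, and tumor cells that have left the epithelial state can also make it.

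The libraries differed in how many regions were called. SNDX-5613 replicate 3 held 40568 peak regions against 88026 to 113675 in the other 5 libraries, so results that rest on it are given with and without it. Read numbers were not used here, so whether depth or another quality of that library set its number was not tested. Of the markers examined, the mesenchymal genes VIM, CDH2, ZEB1 and FN1 had a promoter peak in 6 of 6 libraries, as did the epithelial genes CDH1, EPCAM and KRT8. ALB, APOA1 and HNF4A, which mark hepatocytes, had none in 6 libraries, and TTR had one in 5. PTPRC and CD3E, which mark leukocytes, and PECAM1, which marks endothelium, had none, and the endothelial gene CDH5 had one in 1 library. Of the stellate cell and fibroblast markers, PDGFRB had a promoter peak in 6 libraries, DCN in 5 and LUM in 4. Bulk profiles cannot tell fewer open cells from weaker opening per cell.

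A promoter was counted as open in a library when a peak summit lay within 1 kb of any annotated start of the gene. In the DMSO libraries 25, 32 and 31 of the 44 collagen genes had an open promoter. In the SNDX-5613 libraries the numbers were 33, 31 and 20. The means were 29.3 ± 3.79 (SD, n = 3) and 28.0 ± 7.0 (SD, n = 3), and the groups overlapped. The difference between SNDX-5613 and DMSO was -1.33 genes over all libraries and 2.67 genes without SNDX-5613 replicate 3, so its direction rested on that library. Over all protein-coding genes it was -270.3 and 454 genes, so the same turn in direction was seen there. On average 66.7% of collagen genes were open under DMSO and 63.6% under SNDX-5613, against 73.4% and 72.1% of all protein-coding genes. With every list limited to its 40568 strongest regions, the 6 libraries held 20, 20, 21, 20, 21 and 20 open collagen promoters. At these equal numbers no collagen promoter was open in 3 of 3 libraries of one group and 0 of 3 of the other.

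Collagen promoters ranged from open in every library to closed in every library. Peaks were called in all 6 libraries at 19 genes (43.2%), against 63.9% of all protein-coding genes. A further 5 genes (COL1A2, COL14A1, COL18A1, COL21A1 and COL23A1) were open in every library except SNDX-5613 replicate 3. No library had a promoter peak at 7 genes (15.9%, against 19.8% of all protein-coding genes), which were COL5A2, COL6A3, COL6A5, COL10A1, COL24A1, COL25A1 and COL28A1. The other 13 genes had promoter peaks in 1 to 4 libraries.

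**Figure D1:**
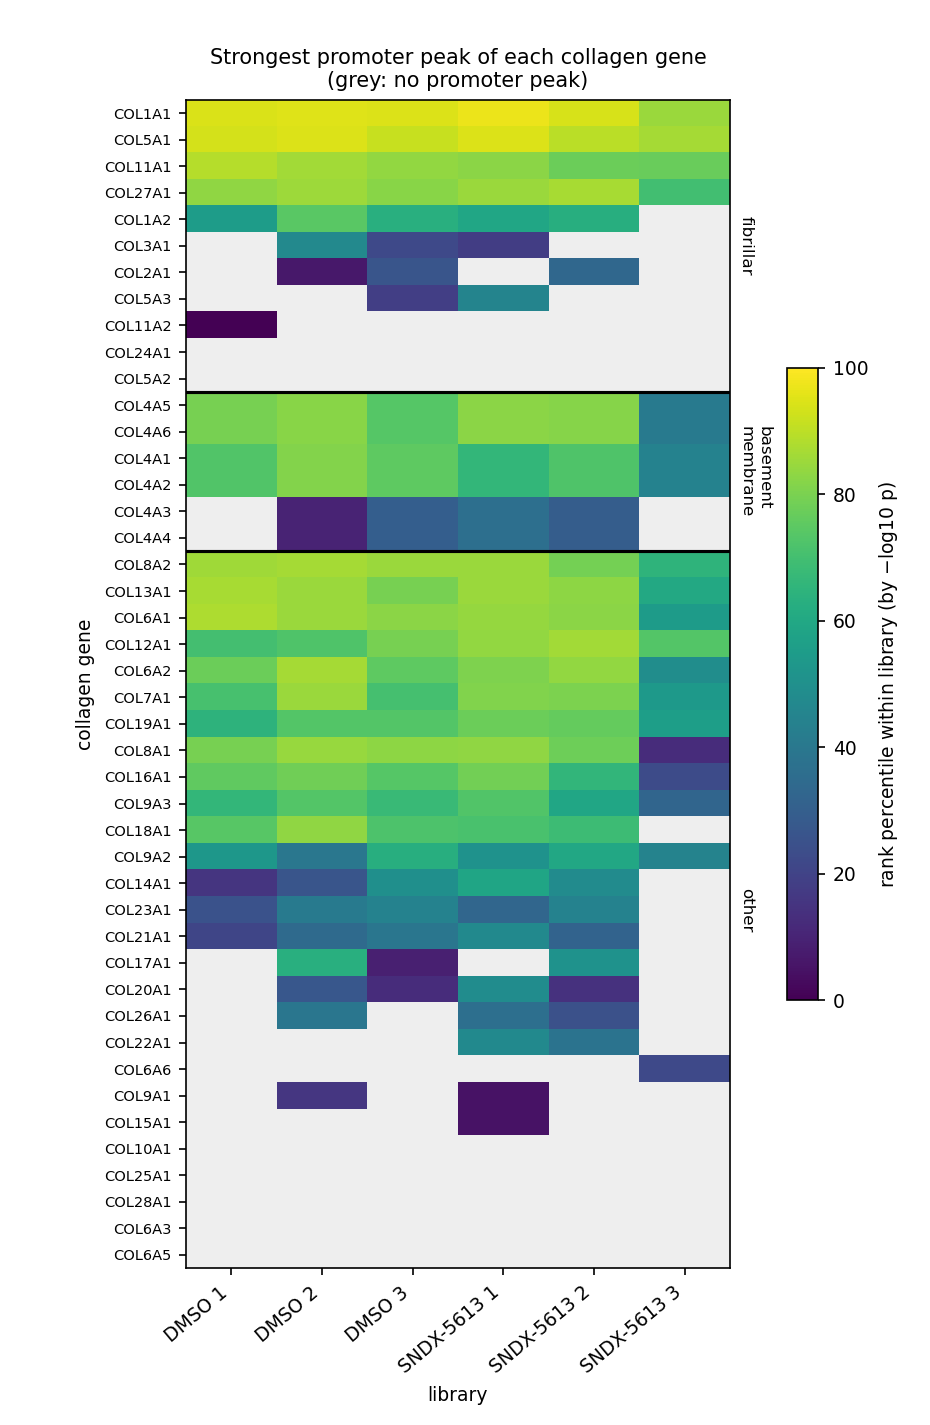
Strength of the strongest promoter peak of each collagen gene (rows, by class) in each library (columns), as the rank percentile of its -log10 p among all peak regions of that library; grey marks no promoter peak. COL1A1 and COL5A1 are the top rows in every library, and 7 genes are grey throughout.

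Among the fibrillar collagens, COL1A1, COL5A1, COL11A1 and COL27A1 were open in all 6 libraries. COL1A1 encodes the main chain of type I collagen, the bulk protein of scar, and had the strongest promoter peak of the family in 5 of 6 libraries. Under DMSO its -log10 p was 127, 170 and 157. Under SNDX-5613 it was 177, 134 and 25.0, the last being just below the 26.5 of COL5A1 in the same library. The peak, chr17:50200097-50201101 (hg38), lay in an intron with its summit 1270 bp downstream of the canonical start, within 1 kb of an alternative start and of the start of ENSG00000249406. Ranked against the sites open in all 6 libraries, it stood at the 85.5, 83.8 and 84.5 percentile under DMSO and at 90.2, 82.8 and 81.9 under SNDX-5613. The difference of 0.35 percentile points (SE 2.78, limma adjusted p = 0.975) was within the spread of the libraries. COL1A2, which encodes the partner chain of type I collagen, had a far weaker peak 728 bp inside the gene (chr7:94395322-94395710), where ENSG00000285090 also starts within 1 kb. Under DMSO its -log10 p was 20.2, 39.1 and 26.6. In SNDX-5613 replicates 1 and 2 it was 20.4 and 24.6, and replicate 3 had no peak. So the genes of the chains of 1 fiber differed in promoter peak strength in each of the 5 libraries in which both had a peak.

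COL5A1 encodes a chain of type V collagen, which starts and limits fibril growth. Its promoter peak (chr9:134641255-134641998, summit 161 bp upstream of the canonical start) had a -log10 p of 120, 162 and 122 under DMSO and 140, 94.4 and 26.5 under SNDX-5613. Its rank changed by -1.60 percentile points (SE 3.999, adjusted p = 0.914). COL5A2, the gene of a partner chain, had no promoter peak in any library, although 8 sites lay in its body. COL3A1, which encodes type III collagen of early scar, had a weak peak 9 bp from its canonical start, with a -log10 p of 13.4 and 6.46 in DMSO replicates 2 and 3 and 5.59 in SNDX-5613 replicate 1. The other 3 libraries had none. The cartilage collagen genes COL2A1 and COL11A2 were open in 3 libraries and 1 library, the type V gene COL5A3 in 2, and COL24A1 in none.

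The type IV genes lie as COL4A1 with COL4A2, COL4A3 with COL4A4 and COL4A5 with COL4A6, each pair sharing its start region. The strongest promoter summit of every type IV gene lay within 1 kb of a start of its partner. COL4A1 and COL4A2 encode the common network of basement membranes. Their shared site (chr13:110306441-110308149) had a -log10 p of 37.5, 56.3 and 43.7 under DMSO and 26.6, 35.8 and 9.06 under SNDX-5613. Its rank was 37.5, 42.4 and 36.7 under DMSO and 18.1, 30.3 and 34.4 under SNDX-5613, so the groups did not overlap. The difference was -11.3 points (SE 6.61), with an exact two-sided permutation p of 0.1, the smallest that 3 against 3 libraries allow. The limma adjusted p was 0.588, and without SNDX-5613 replicate 3 the difference was -13.5 points (SE 6.58, adjusted p = 0.434). In that fit, here and at other sites, ranks were taken anew among the 59985 sites with a peak in the remaining 5 libraries, so its points are on another scale. On the log2 fold enrichment scale the difference at the COL4A1 and COL4A2 site was -0.05 (limma adjusted p = 0.953). The size of the fall thus depended on the measure. The COL4A5 and COL4A6 site (chrX:108439464-108440223) ranked 49.3, 44.2 and 33.5 under DMSO and 47.0, 49.7 and 30.3 under SNDX-5613, a difference of -0.02 points (SE 7.65, adjusted p = 1.00). COL4A3 and COL4A4, whose chains serve the kidney filter, shared a weak peak with a -log10 p of 4.18 and 8.29 in DMSO replicates 2 and 3 and of 9.73 and 7.82 in SNDX-5613 replicates 1 and 2.

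The start regions of the 2 always-open pairs differ in base composition. Both are shown from hg38 with annotated exons left out, and capitals mark CCAAT, the NF-Y box, and GGGCGG, the SP box, on either strand. The 100 bases before the COL4A1 start (chr13:110307158-110307257, COL4A1 strand) are part of the stretch between the COL4A1 and COL4A2 canonical starts. They hold 1 match of each and are 78.0% G or C. The 200 bases before the COL4A5 start (chrX:108439638-108439837, plus strand) hold no match and are 53.5% G or C. The RefSeq windows of COL4A5 and COL4A6, which extend past these bases, hold 2 and 3 CCAAT.
COL4A1: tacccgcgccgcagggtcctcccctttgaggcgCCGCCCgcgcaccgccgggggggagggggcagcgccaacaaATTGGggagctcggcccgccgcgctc
COL4A5: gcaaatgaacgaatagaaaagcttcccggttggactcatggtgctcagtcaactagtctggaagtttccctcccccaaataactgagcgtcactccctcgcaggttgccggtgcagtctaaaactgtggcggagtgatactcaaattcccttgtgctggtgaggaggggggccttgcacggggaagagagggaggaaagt

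Of the other collagens, 11 of 27 were open in all 6 libraries. COL6A1 and COL6A2, which encode chains of the beaded filaments around cells, were among them, while COL6A3, the gene of their obligate partner chain, had no promoter peak in any library. COL6A1 had a -log10 p of 79.5, 69.2 and 62.4 under DMSO and of 60.8, 58.7 and 11.3 under SNDX-5613. Its main promoter site (chr21:45981134-45981592) changed in rank by -6.92 points (SE 6.61, adjusted p = 0.743). COL18A1, the gene of the basement membrane collagen that yields endostatin, reached 39.2, 63.1 and 37.7 under DMSO and 32.7 and 30.6 in SNDX-5613 replicates 1 and 2, with no call in replicate 3. ENSG00000273796 also starts within 1 kb of that summit. COL7A1, the anchoring fibril of epithelia, and the short chain collagens COL8A1 and COL8A2 were open in all 6 libraries. So were the fibril-associated collagens COL9A2, COL9A3, COL12A1, COL16A1 and COL19A1. At COL19A1 the summit lay within 1 kb of the start of LMBRD1, so the peak cannot be assigned to COL19A1 alone.

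Which annotated start was used mattered for this group. For each of the 37 collagen genes with a promoter peak, the peak with the highest -log10 p in any library was taken. It lay within 1 kb of the canonical start at 26 genes and farther away, at an alternative start, at 11. Taken by the highest rank within a library, the numbers were 25 and 12, the gene that differed being COL23A1. The transmembrane collagen gene COL13A1 had its strongest peak 99905 bp inside the gene in all 6 libraries. In COL16A1 and COL21A1, both fibril-associated, the peak with the highest -log10 p lay 19807 bp and 156256 bp from the canonical start. With canonical starts only, 20, 23 and 24 collagen promoters were open under DMSO and 26, 24 and 13 under SNDX-5613.

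The type IV class had the highest median promoter rank in each library. The median promoter rank over the genes of the class, with closed promoters set to 0, was 75.9 ± 4.81 (SD, n = 3) in DMSO libraries for type IV, 24.5 ± 23.4 for fibrillar and 34.98 ± 12.5 for other collagens. Under SNDX-5613 the medians averaged 59.7 ± 16.8, 26.2 ± 23.5 and 32.4 ± 28.0. Genes are not replicates and paired genes share a peak, so the 6 type IV values stand for 3 start regions. With promoters taken within 3 kb, the DMSO values were 76.2 for type IV, 68.8 for fibrillar and 62.6 for other collagens, so most of the gap between the classes was lost. The fibrillar value was 36.7 without DMSO replicate 1 and 13.3 without DMSO replicate 2.

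Gene bodies held most of the collagen sites. Of 498 sites, 88 were promoter sites and 410 lay in gene bodies, of which 380 had their strongest summit in an intron and 30 in an exon. The libraries had 192, 265 and 221 collagen body sites under DMSO and 238, 210 and 72 under SNDX-5613. Per 100 kb of body this was 3.62 ± 0.589 (SD, n = 3) and 2.78 ± 1.42 (SD, n = 3), and 3.59 over SNDX-5613 replicates 1 and 2. All protein-coding genes together had 3.27 ± 0.496 and 2.49 ± 1.28. At equal region numbers the counts were 70, 71 and 72 under DMSO and 64, 65 and 72 under SNDX-5613.

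By class, fibrillar genes had 4.85 ± 1.07 body sites per 100 kb under DMSO, type IV genes 4.33 ± 0.791 and the other collagens 2.98 ± 0.371 (SD, n = 3 libraries each). Over SNDX-5613 replicates 1 and 2 the means were 4.51, 3.49 and 3.30 in the same order. They were thus lower for fibrillar and type IV genes and higher for the others, with overlapping libraries in each class. Across the 44 genes, the number of body sites rose with body length (Spearman rho 0.51, across genes that share libraries). The largest numbers in each class belonged to COL11A1 with 30 sites, COL4A2 with 31 and COL23A1 with 44.

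**Figure D2:**
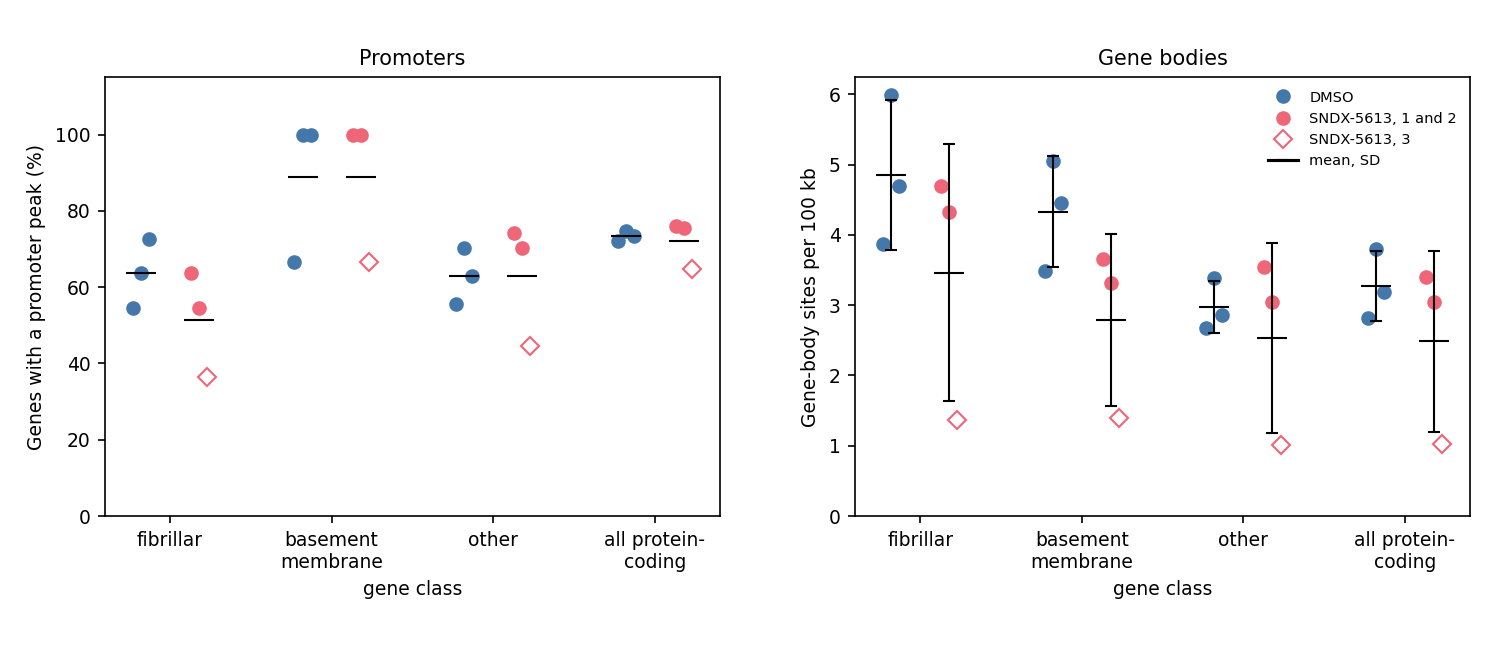
Left, percent of genes with a promoter peak; right, gene-body sites per 100 kb, by class. Points are libraries, the open diamond is SNDX-5613 replicate 3, horizontal lines are means and, on the right, bars are SD over 3 libraries. In every class the open diamond lies below the filled points, or level with the lowest of them.

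COL23A1 encodes a transmembrane collagen and lies at chr5:178237476-178590393. Its body held 9, 14 and 10 sites under DMSO and 19, 19 and 6 under SNDX-5613. SNDX-5613 replicates 1 and 2 were both above every DMSO library, and replicate 3 was below them. Among 2040 protein-coding genes with at least 10 body sites, SNDX-5613 replicates 1 and 2 both exceeded all DMSO libraries at 232 genes (11.4%) and fell below all of them at 212 (10.4%). COL23A1 was the only one of 13 such collagen genes to do either. At equal region numbers it had 3 sites in each of 5 libraries and 6 in SNDX-5613 replicate 3, so the higher numbers were not seen among the strongest regions.

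COL11A1, a fibrillar collagen gene of cartilage that is also known from activated fibroblasts, had 12, 21 and 19 body sites under DMSO and 13, 8 and 2 under SNDX-5613. DMSO replicate 1 lay within the SNDX-5613 values. COL4A2 had 20, 27 and 24 under DMSO and 23, 21 and 10 under SNDX-5613, and COL4A1 had 8, 14 and 12 against 7, 9 and 3.

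**Figure D3:**
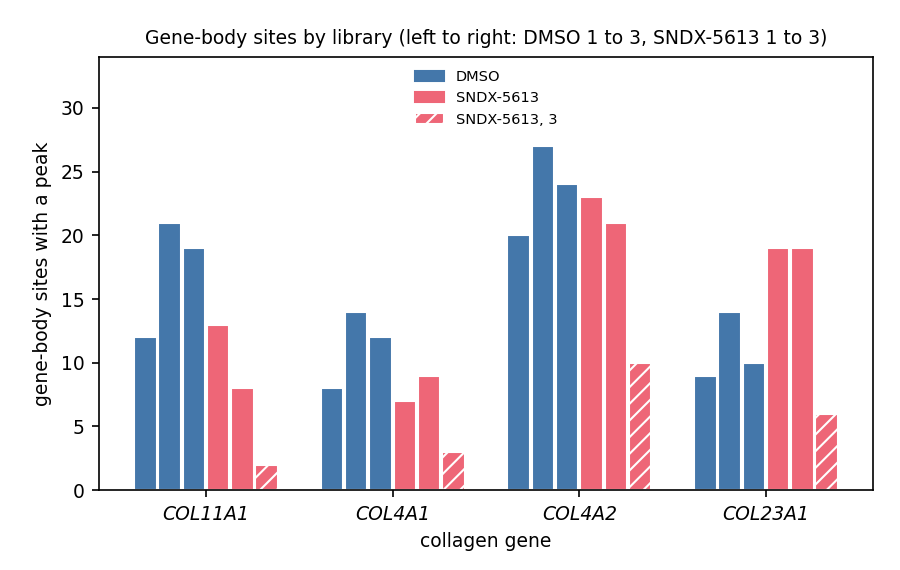
Number of gene-body sites with a peak in each library for 4 collagen genes; bars are single libraries and the hatched bar is SNDX-5613 replicate 3. COL23A1 rises to 19 sites in SNDX-5613 replicates 1 and 2 from 9 to 14 under DMSO, and COL11A1 falls to 8 in replicate 2.

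Sites called in all libraries of one group and none of the other show change by presence alone. Of the 498 collagen sites, 1 was gained under SNDX-5613 (0.201%, against 0.147% of all 166021 sites) and 9 were lost (1.81%, against 1.18%). Type IV genes held 4 of the lost sites among their 80 sites (5.00%), fibrillar genes 3 of 130 (2.31%) and the other collagens 2 of 288 (0.694%). Without SNDX-5613 replicate 3, 9 sites were lost (1.85%, against 1.23% of all sites), all 9 of them shared with the list above. The gained sites then numbered 12 (2.46%, against 2.43% of all sites), of which 4 lay in COL23A1 and 2 in COL26A1. The number gained thus depended on SNDX-5613 replicate 3, and each share of gained sites stood near that of all sites. The number lost was 20, 10 and 16 without DMSO replicates 1, 2 and 3, and 19 and 18 without SNDX-5613 replicates 1 and 2. Fewer libraries then had to match, and why the numbers differed between these settings was not tested. No share over all sites is at hand for these settings, so the higher numbers are not read as a collagen result.

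The lost site of COL4A3 had the highest single value, with a -log10 p of 13.8, 21.6 and 12.4 under DMSO and no peak under SNDX-5613. It lies in an intron at chr2:227238374-227238516, and it was the only body site of that gene. In COL4A1 the intronic site chr13:110258996-110259126 reached 12, 15.5 and 9.12. An intronic site of COL4A6 (chrX:108224597-108224924) reached 9.10, 6.85 and 14.6. In COL4A5 the intronic site chrX:108456885-108457311 reached 5.96, 7.81 and 9.28. So each of the type IV pairs held at least 1 lost site, and all 4 were intronic.

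The bases of these 4 sites are given on the plus strand of hg38, whole for COL4A3 and COL4A1 and as 75 bases either side of the strongest summit for COL4A6 and COL4A5. Capitals mark, on either strand, the NF-Y box CCAAT, the SP box GGGCGG, the TATA box TATAAA, the AP-1 box TGANTCA, the TEAD box CATTCC and the GATA box AGATAA. In windows of 151 bases at the summits of all sites, CCAAT occurred in 19.5%, GGGCGG in 12.5%, TGANTCA in 13.9% and AGATAA in 4.80%. The 4 sites hold 1 marked box each, a different one in each site.
COL4A3: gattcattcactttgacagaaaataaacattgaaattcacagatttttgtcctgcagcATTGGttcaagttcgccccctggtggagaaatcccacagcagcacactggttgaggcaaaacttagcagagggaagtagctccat
COL4A1: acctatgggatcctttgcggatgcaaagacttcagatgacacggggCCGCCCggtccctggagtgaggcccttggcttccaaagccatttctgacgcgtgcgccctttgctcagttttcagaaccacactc
COL4A6: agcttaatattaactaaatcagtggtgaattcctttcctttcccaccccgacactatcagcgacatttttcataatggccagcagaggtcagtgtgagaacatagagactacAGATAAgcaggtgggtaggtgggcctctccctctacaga
COL4A5: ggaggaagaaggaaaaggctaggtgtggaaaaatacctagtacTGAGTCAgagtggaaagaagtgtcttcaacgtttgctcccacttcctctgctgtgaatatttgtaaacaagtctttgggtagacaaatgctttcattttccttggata

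**Figure D4:**
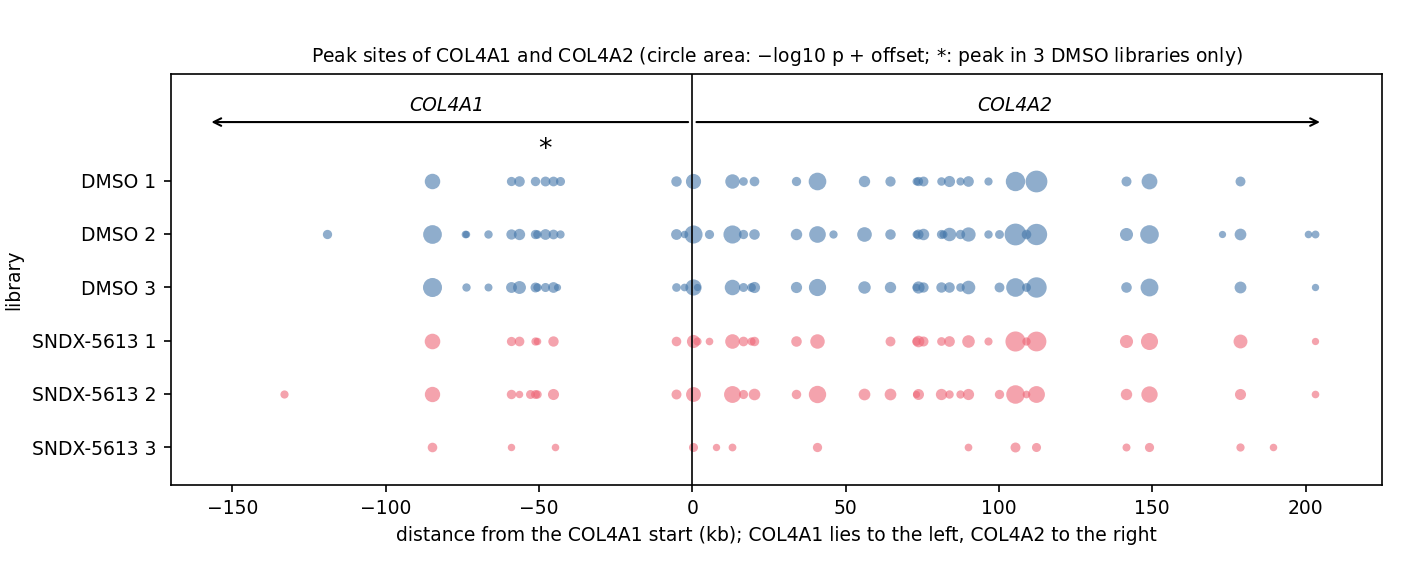
Peak sites of COL4A1 and COL4A2 by library, placed by distance in kb from the COL4A1 start; circle area grows with -log10 p. The starred COL4A1 site has a peak in the 3 DMSO libraries and in none of the SNDX-5613 libraries, while the strongest sites appear in all 6.

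Fibrillar genes lost 2 intronic sites in COL11A1 and 1 in COL5A2. The COL5A2 site (chr2:189210743-189210978) had the steadiest values, with a -log10 p of 11.7, 11.4 and 11.4 under DMSO. The COL11A1 sites reached 9.10, 4.18 and 11.8 (chr1:102983480-102983713) and 4.87, 5.92 and 7.23 (chr1:103076330-103076834). In other collagens, COL19A1 lost an intronic site (chr6:69914030-69914167) of 10.2, 5.92 and 6.41. COL16A1 lost a site at an alternative start (chr1:31666238-31666541), where its summit lies in an exon, of 7.67, 6.28 and 4.65. The gained site was in an intron of COL26A1 (chr7:101498237-101498637), with 4.40, 7.97 and 3.73 in the SNDX-5613 libraries.

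Sites with a peak in all 6 libraries allowed a test of strength. Each was ranked within its library by -log10 p, from 0 to 100, and the ranks were compared with limma over 33405 sites. Of 81 collagen sites, 23 at promoters and 58 in bodies, none passed an adjusted p of 0.05, against 0.0898% of all sites called higher and 0.012% called lower under SNDX-5613. At an unadjusted p under 0.05 there were 9 (11.1%), against 9.9% of all sites. The smallest adjusted p was 0.275. The ranks did not overlap between groups, with SNDX-5613 higher, at 7 sites (8.64%, against 8.54% of all sites). With SNDX-5613 lower there were 8 sites (9.88%, against 8.08%). The median rank difference of the 81 sites was 0.19 percentile points, against -0.09 over all sites.

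By class the type IV sites had 0 sites higher and 3 lower (21.4%) without overlap among 14, with a median difference of -4.01 points. All 3 lay at COL4A1 and COL4A2, 1 of them being their shared promoter site, so they stand for 1 locus. Fibrillar sites had 3 higher and 3 lower among 23, with a median of 1.13 points. The other collagens had 4 higher (9.09%) and 2 lower (4.55%) among 44, with a median of 1.27 points. Over all sites the shares were 8.54% higher and 8.08% lower. Without SNDX-5613 replicate 3, 160 collagen sites were tested and none passed, against 0.262% of all sites. At an unadjusted p under 0.05 there were then 21 (13.1%), against 12% of all sites.

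**Figure D5:**
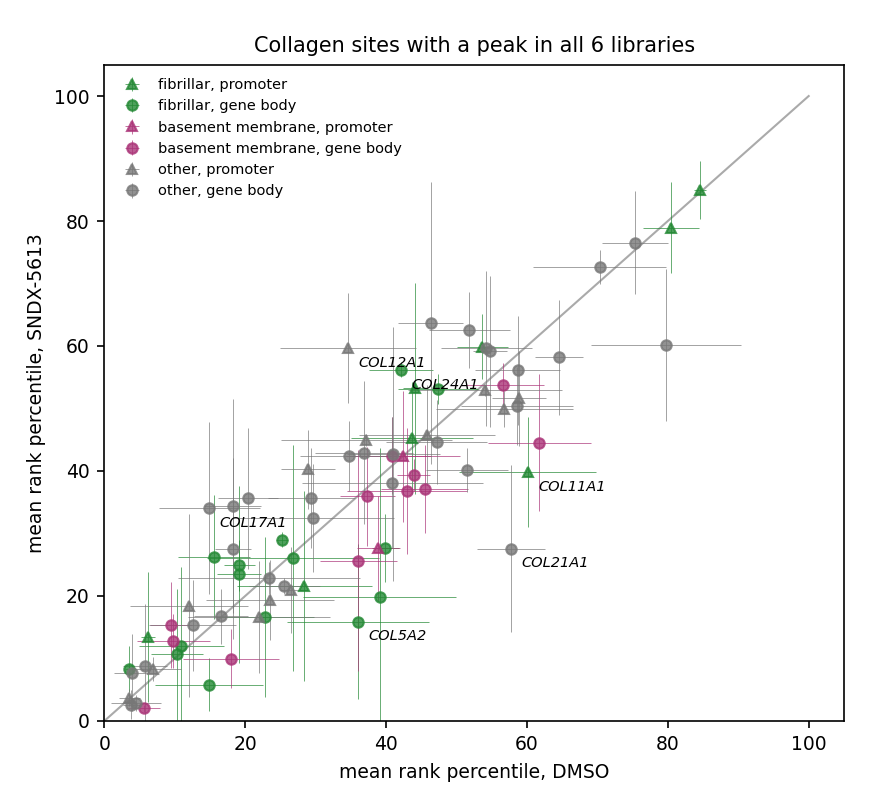
Mean rank percentile of the 81 collagen sites with a peak in all 6 libraries, DMSO on the horizontal and SNDX-5613 on the vertical axis; bars are SD over 3 libraries and the line marks equal ranks. The named sites are those with the largest differences among sites whose groups did not overlap; none passed the limma test.

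Among sites whose groups did not overlap, the largest falls in rank were at COL21A1, COL11A1 and COL5A2. The COL21A1 site lies in an intron (chr6:56370152-56370966) of this fibril-associated collagen. It ranked 63.1, 53.5 and 56.6 under DMSO and 30.7, 39.0 and 13 under SNDX-5613, a difference of -30.1 points (SE 7.85, adjusted p = 0.275). Ranked anew without SNDX-5613 replicate 3, it stood at 79.0, 73.1 and 75.2 against 55.6 and 63.2, a difference of -16.4 (SE 4.29, adjusted p = 0.137). Ranked by fold enrichment, the difference over all libraries was -45.6.

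The COL11A1 site is its canonical promoter (chr1:103108372-103109039, summit 124 bp upstream). It ranked 71.3, 54.3 and 54.7 under DMSO and 37.0, 32.8 and 49.8 under SNDX-5613, a difference of -20.3 points (SE 7.41, adjusted p = 0.431). Ranked by fold enrichment the difference was -5.37, and on the log2 fold enrichment scale it was -0.16 (adjusted p = 0.846), so its size depended on the measure. Ranked anew without SNDX-5613 replicate 3, the site stood at 83.9, 73.7 and 74.0 against 61.2 and 57.9, a difference of -17.7 (SE 4.32, adjusted p = 0.109). The 200 bases before the start (chr1:103108523-103108722, gene strand) hold 1 CCAAT and 3 GGGCGG, in capitals on either strand.
COL11A1: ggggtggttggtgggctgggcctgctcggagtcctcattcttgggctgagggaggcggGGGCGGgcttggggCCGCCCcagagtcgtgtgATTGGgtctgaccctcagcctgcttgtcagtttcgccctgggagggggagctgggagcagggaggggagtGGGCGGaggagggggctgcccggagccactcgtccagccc

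The COL5A2 intronic site (chr2:189143090-189143441) ranked 30.6, 29.8 and 47.7 under DMSO and 28.2, 16.2 and 3.29 under SNDX-5613. Its difference was -20.2 points (SE 7.68, adjusted p = 0.444), and -12.7 when ranked anew without SNDX-5613 replicate 3 (SE 7.50, adjusted p = 0.529). It was -37.9 when ranked by fold enrichment and -12.8 when peaks had to cover 50% of the site.

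The largest rises were at COL12A1, COL17A1 and COL24A1. COL12A1 encodes a fibril-associated collagen of tendon and stroma. Its promoter site (chr6:75205680-75206354, summit in an annotated exon, 171 bp upstream of the canonical start) ranked 33.8, 25.5 and 44.7 under DMSO and 50.3, 60.8 and 67.9 under SNDX-5613. The difference was 25.0 points (SE 7.52, adjusted p = 0.345), and 16.8 when ranked anew without SNDX-5613 replicate 3 (SE 5.74, adjusted p = 0.253).

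COL17A1 encodes the hemidesmosome collagen of epithelia. A site in one of its introns (chr10:104054417-104054859) ranked 23.2, 9.78 and 11.8 under DMSO and 27.4, 24.9 and 49.99 under SNDX-5613, a difference of 19.2 points (SE 7.46, adjusted p = 0.45). The strongest site of the same gene, also intronic (chr10:104045399-104046099), moved the other way, with overlapping groups. It ranked 89.1, 82.1 and 68.1 under DMSO and 64.4, 69.6 and 46.4 under SNDX-5613, a difference of -19.6 points (SE 6.86, adjusted p = 0.417). An intronic site of COL24A1 (chr1:85850162-85850684), a fibrillar collagen gene with a closed promoter, ranked 36.9, 44.2 and 45.2 under DMSO and 56.0, 57.5 and 55.1 under SNDX-5613. Its difference was 14.1 points (SE 6.06, adjusted p = 0.488), and 7.42 when ranked by fold enrichment. Each of the 6 sites without overlap had an exact two-sided permutation p of 0.1, the smallest that the design allows.

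A COL3A1 site, chosen after its values were seen, had 2 SNDX-5613 libraries below all DMSO values and 1 among them. It lies in an intron 1496 bp from the canonical start (chr2:188975722-188976009). It ranked 37.9, 50.5 and 28.9 under DMSO, and 10.8, 1.95 and 46.8 under SNDX-5613. Over all 6 libraries the difference was -19.3 points (SE 10.8, adjusted p = 0.571). Ranked anew without SNDX-5613 replicate 3, it stood at 60.8, 71.1 and 53.2 against 30.3 and 9.51. The difference was then -41.8 points (SE 8.86, adjusted p = 0.0683), the smallest adjusted p of any collagen site in that fit.

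Genes that modify, fold, cut and cross-link collagen chains were mostly open. Of the 31 listed, 27 (87.1%) had a promoter peak in all 6 libraries, against 43.2% of the collagen genes and 63.9% of all protein-coding genes. They included the prolyl hydroxylase genes P4HA1, P4HA2 and P4HB, the collagen chaperone SERPINH1, the procollagen proteinase BMP1 and the cross-linking oxidases LOX and LOXL2. ADAMTS2, which trims type I procollagen, had a peak in 3 libraries and ADAMTS14 in 4. P3H3 had one in 4 libraries and LOXL4 in none. The number open was 29.3 ± 1.15 under DMSO and 28.3 ± 1.15 under SNDX-5613 (SD, n = 3 each). Of their 71 sites ranked in all 6 libraries, limma called 0, with 4 at an unadjusted p under 0.05 (5.63%, against 9.9% of all sites) and a smallest adjusted p of 0.392. Ranks did not overlap at 3 sites with SNDX-5613 higher (4.23%, against 8.54%) and at 10 with SNDX-5613 lower (14.1%, against 8.08%). Of their 294 sites, 0 were gained and 4 were lost (1.36%, against 1.18%).

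The consensus sets, 1 per group, have no replicate error. The DMSO set held 244 regions at collagen genes, of which 30 (12.3%) overlapped no SNDX-5613 region, against 11.7% of all its regions. The SNDX-5613 set held 236, of which 23 (9.75%) overlapped no DMSO region, against 11.1% of all. COL11A1 held 7 and COL4A1 held 4 of the 30 DMSO regions, and COL23A1 held 5 of the 23 SNDX-5613 regions.

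Promoter sequence was compared with RefSeq promoters (GRCh38.p14) running from 250 bases before to 50 after the start, which were matched by symbol for 32 of the 44 genes. CCAAT on either strand occurred in 10 of 32 collagen promoters (31.2%), against 34.6% of 35116 promoters. GGGCGG occurred in 18 (56.2%, against 45.0%), TATAAA in 5 (15.6%, against 11.5%), AGATAA in 3 (9.38%, against 10.3%) and CATTCC in 1 (3.12%, against 14.03%). TGANTCA occurred in none, against 7.71%. Of the windows of the 15 matched genes with a promoter peak in all 6 libraries, 5 held CCAAT, as did 5 of the other 17. Those 5 open genes were COL11A1 and the 4 always-open type IV genes. The windows of paired type IV genes overlap, so 1 box can count for both genes of a pair, as it did at COL4A1 and COL4A2. In windows of 100 bases either side of the strongest promoter summit, CCAAT occurred at 21.6% of 37 collagen genes, against 31.7% of 16066 genes, and GGGCGG at 51.4%, against 61.7%. CATTCC occurred there at 3 collagen genes (8.11%, against 7.61%) and TGANTCA at 2 (5.41%, against 4.33%). TATAAA occurred at 4 (10.8%, against 2.55%) and AGATAA at 1 (2.70%, against 1.89%). The lower shares of CATTCC and TGANTCA around RefSeq starts were thus not seen around summits. GGGCGG was more frequent than in all promoters around RefSeq starts and less frequent around summits. The comparison set differed, being all RefSeq promoters in the first case and only genes with a promoter peak in the second. The windows of these 15 genes had a median of 66.0% G or C and 22 CG dinucleotides. Those of the 5 genes without a peak in any library had 56.3% and 4. A window is not always the open start of its gene. At COL8A2, COL13A1 and COL16A1 the strongest promoter summit lay 25453, 99905 and 19807 bp from the canonical start. The 9 with a peak in 1 to 4 libraries had 66.7% and 24, the 3 open in all but SNDX-5613 replicate 3 had 73.3% and 28, and all promoters had 58.7% and 14. G or C content thus did not order the groups by how many libraries had a peak.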

How the data were processed

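Peak lists from 6 ATAC-seq libraries and 2 consensus sets in hg38 were analysed. Per the submitters' processing notes, the authors used Trim Galore 0.6.7, Bowtie2 2.3.4.1, Picard 2.20.0, SAMtools, deepTools 3.5.4 and MACS2. A Tn5 shift, duplicate removal and a blacklist were not stated. The deposited lists give the authors' fold enrichment over local background and -log10 p for each summit, and the deposited consensus sets give regions combined over replicates. The authors tested read counts, which were not used here.

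Overlapping regions of the 6 libraries were merged into sites. GENCODE release 44 gave genes and starts. Promoter peaks had a summit within 1 kb of any start, and body sites had a summit elsewhere in the gene. The -log10 p of sites open in all 6 libraries was turned into rank percentiles per library and fitted with limma (trended eBayes, no replicate block, Benjamini-Hochberg over all 33405 sites), after a test on simulated data. Where RefSeq gives several promoters, the one listed first was used. Peak strength depends on depth, which the lists do not give as reads.

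Members and gene lists were chosen with earlier results of these data known. Values in every library are given for 8 listed genes, all gained or lost sites, the 3 largest rank differences each way without overlap and the gene with most body sites per class. Alternatives covered each library left out, stricter peaks, equal region numbers, promoter distance and start choice, 50% cover, ranks by fold, array weights, and quantile-normalized log2 fold enrichment.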

Additional observations from a re-analysis of the deposited data

How the results depend on the processing

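The count of collagen sites past the limma test was 0 under each of the alternatives, and 7 to 14 collagen sites had an unadjusted p under 0.05 in fits on all 6 libraries and all shared sites. The replicate block also gave 0 for collagen and 0 for processing genes, and over all sites 3 higher and 0 lower. Without the block these were 30 and 4, with array weights 177 and 38, without SNDX-5613 replicate 3 126 and 31, and by fold enrichment, ranked or on the log2 scale, 0 and 0. Deviations of same-numbered libraries correlated by 0.0313, 5.9e-05 and 0.0184, and those of differently numbered libraries by -0.0652 to 0.0391. The measure showed no pairing under any numbering. It thus cannot tell whether same-numbered libraries came from the split dishes that the study's methods describe. Leaving out 1 library gave 0 to 12 gained, 9 to 20 lost, 9 to 22 higher and 10 to 30 lower collagen sites without overlap, where fewer libraries must agree. The 12 gained, 22 higher and 30 lower came without SNDX-5613 replicate 3, where 160 collagen sites were ranked, against 81 with all 6 libraries. Leaving out 1 library moved the promoter difference between -3.83 and 2.67 genes, the body difference between -85.7 and -2.0 sites and the processing difference between -1.67 and -0.333 genes. DMSO class ranks ranged from 13.3 to 36.7 for fibrillar, 73.1 to 77.4 for type IV and 30.3 to 42.1 for other collagens. A -log10 q of at least 3 left 0 gained sites. Equal numbers of top regions gave 4 lost sites, a difference of 1 processing gene, and DMSO class ranks of 0 for fibrillar, 42.0 for type IV and 0 for other collagens. A promoter distance of 3 kb moved the fibrillar and other ranks to 68.8 and 62.6, and 500 bp moved the other class to 13.1. Canonical starts gave 61.1 for type IV and 0 for the other class. Requiring 50% cover gave 0 gained, 5 lost, 2 higher and 3 lower sites. Ranking by fold enrichment gave 1 higher site and a type IV rank of 58.5. The cause of these moves was not tested. The 6 named rank differences kept their direction in every alternative that tested them. Type IV kept the highest DMSO class rank under every setting. The lists give no read depth, so what depth limits could not be measured.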
